A study of Mus musculus with 15 samples.

Results

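Matrix metalloproteases (MMPs) are zinc-dependent enzymes that cut the proteins of the extracellular matrix, and the tissue inhibitors of metalloproteases (TIMPs) are small secreted proteins that block them. Most MMPs leave the cell as inactive zymogens and are switched on by cutting, a step in which plasmin, made from plasminogen by the urokinase *Plau*, takes part. In macrophages, which carry *Mmp12* as a characteristic elastase, the family is known for remodelling of vessel walls and for the breakdown of the fibrous cap of atherosclerotic plaques. The 10 genes described here were *Mmp2*, *Mmp9*, *Mmp12*, *Mmp13*, *Mmp14*, *Mmp19*, *Timp1*, *Timp2*, *Timp3* and *Plau*, taken by gene symbol from the 54390 genes in the count tables.

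The genes were measured by bulk RNA sequencing in BV2 cells, a mouse microglial line, in 15 libraries. WT cells were grown in media alone (non-foamy, n = 4 libraries) or with soluble cholesterol at 20 µg/ml overnight (foamy, n = 4), and Trem2-/- cells were treated in the same way (non-foamy, n = 3, and foamy, n = 4). Trem2 is a lipid-sensing receptor of macrophages and microglia. The Trem2-/- cells came from a Cas9-expressing BV2 clone that was transfected with a Trem2 guide plasmid, selected and cloned by limiting dilution. How many clones were sequenced, and whether the WT libraries were made from that Cas9 parent, is not given in the sources used here, so genotype and clone cannot be told apart. Nothing in the labels says that the libraries of a group were separate cultures, so the p-values measure the spread between these libraries, which may be technical. In bulk samples such as these, fewer cells of a kind and less RNA per cell cannot be told apart.

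Each library held 23538963 to 41683825 counted reads. *Trem2* itself was still transcribed in the Trem2-/- libraries, at 222 ± 8.79 CPM (reads per 1000000 counted, scaled by TMM, SD, n = 3) without and 224 ± 4.56 CPM (SD, n = 4) with cholesterol. The WT libraries had 354 ± 41.2 and 373 ± 26.4 CPM (SD, n = 4 each). These counts do not report on the protein. The defining macrophage markers, among them *Csf1r*, *Cd68* and *Tyrobp*, were counted in every library. The 8 macrophage markers summed to 3170 to 3890 CPM in WT and 4510 to 4830 CPM in Trem2-/- libraries, so the genotypes did not overlap. Gene by gene, 46.1% of all tested genes did not overlap between the genotypes in non-foamy and 28.8% in foamy cells. In both genotype comparisons 6 of the 8 were called higher in Trem2-/- cells (*Ptprc*, *Csf1r*, *Aif1*, *Cd68*, *Adgre1* and *Tyrobp*). Of all tested genes, 21.0% were called higher in non-foamy and 14.3% in foamy cells. *Fcgr1* was called lower in non-foamy cells, as were 22.6% of all tested genes. The 5 fibroblast markers were at 0 in all 15 libraries, as were 2 of the 6 neutrophil markers, *Ly6g* and *S100a9*, and the summed neutrophil markers lay between 0.259 and 0.797 CPM. The 4 endothelial markers summed to 4.64 to 9.88 CPM in WT and 1.91 to 4.42 CPM in Trem2-/- libraries, nearly all of it *Kdr*, with *Cdh5* and *Tek* at 0 in 14 and 13 libraries. The astrocyte markers summed to at most 0.631 CPM. The part of these markers in the results was not tested.

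Genes that respond to cell sterol changed in opposite directions with cholesterol in the 2 genotypes. In WT cells the cholesterol exporter gene *Abca1* rose by 0.82 ± 0.0952 on the log2 scale (SE, adjusted p = 3e-05, edgeR) and the sterol synthesis gene *Cyp51* fell by 0.78 ± 0.0564 (adjusted p = 1.56e-08, edgeR). In Trem2-/- cells *Abca1* fell by 0.49 ± 0.1 (adjusted p = 0.0478, edgeR) and *Cyp51* rose by 0.53 ± 0.0629 (adjusted p = 7.76e-05, edgeR). *Cyp51* stood at 134 ± 4.52 and 78.1 ± 3.87 CPM in WT non-foamy and foamy cells, and at 43.8 ± 2.5 and 63.3 ± 1.22 CPM in the corresponding Trem2-/- groups (SD, n = 4, 4, 3 and 4). The Trem2-/- libraries labelled non-foamy therefore had the lowest *Cyp51* of the 4 groups. Every comparison of a member with the Trem2-/- non-foamy libraries below carries this difference with it, and its part in the results was not tested. Groups follow the labels as deposited, and whether the 2 Trem2-/- labels were exchanged cannot be told from these counts. With the labels exchanged, each change with cholesterol in Trem2-/- cells given below would have the opposite sign, and the differences between the responses and between the genotypes would be other values.

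Of the 10 members, 7 passed the filter on low counts (at least 10 reads in a minimum of 3 libraries, scaled to depth) and were tested: *Mmp2*, *Mmp9*, *Mmp12*, *Mmp13*, *Mmp19*, *Timp2* and *Plau*. *Mmp14*, *Timp1* and *Timp3* did not pass. *Mmp9* and *Mmp13* passed mainly through the WT libraries: *Mmp9* had at least 10 reads in 7 of 8 WT libraries and 1 of 7 Trem2-/- libraries, and *Mmp13* in 5 and 0. A gene that enters through 1 genotype had to differ between the genotypes, so counts over the tested members are given as a description only.

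Levels between genes were compared per length, as RPKM (CPM divided by the exonic length in kilobases). In WT non-foamy cells the order was *Plau* at 72.7 ± 2.97, *Timp2* at 16.9 ± 0.617, *Mmp12* at 9.80 ± 0.997 and *Mmp19* at 3.12 ± 0.311 RPKM (SD, n = 4), and each other member lay under 0.25 RPKM. In Trem2-/- non-foamy cells *Plau* stood at 66.6 ± 4.46, *Timp2* at 42.8 ± 0.665, *Mmp19* at 5.11 ± 0.435 and *Mmp12* at 2.88 ± 0.367 RPKM (SD, n = 3). Per length, *Mmp12* was thus above *Mmp19* in each WT library and below it in each Trem2-/- library. The RPKM of *Mmp12* ranged from 8.41 to 11.1 in WT and from 2.24 to 3.18 in Trem2-/- cells. That of *Mmp19* ranged from 2.74 to 3.90 and from 4.37 to 5.85. This order depends on the lengths used, 7237 bases for *Mmp12*, with the exons of 7 transcripts joined, and 3533 for *Mmp19*. In CPM the Trem2-/- means of *Mmp12* were 20.8 without and 18.8 with cholesterol, and those of *Mmp19* 18.1 and 17.8. The neighbours *Mmp2* and *Mmp9*, at 0.245 ± 0.0424 and 0.161 ± 0.106 RPKM in WT non-foamy cells, did not differ beyond their spread.

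*Mmp12* and *Mmp13* lie side by side on chromosome 9, 61049 bases apart, at one end of a run of 10 Mmp genes that spans 427072 bases. In GRCm38, *Mmp13* (ENSMUSG00000050578), a collagenase, occupies positions 7272514 to 7283331 and *Mmp12* (ENSMUSG00000049723), the macrophage elastase, positions 7344381 to 7369499, both on the plus strand. Because both were lower in Trem2-/- foamy cells, the 250 bases before an annotated start of each are shown, from the RefSeq promoter table (GRCm38.p6). The *Mmp13* window is chr9:7272264-7272513, before the only annotated start. The *Mmp12* window is chr9:7347124-7347373, before the start of the transcripts whose first exon is at 7347374, and lies in the first intron of the transcripts that start at 7344381 and 7344397. Capitals mark matches to the AP-1 letters TGANTCA, searched on both strands, and to the TATA box TATAAA, searched on the sense strand.

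Mmp13: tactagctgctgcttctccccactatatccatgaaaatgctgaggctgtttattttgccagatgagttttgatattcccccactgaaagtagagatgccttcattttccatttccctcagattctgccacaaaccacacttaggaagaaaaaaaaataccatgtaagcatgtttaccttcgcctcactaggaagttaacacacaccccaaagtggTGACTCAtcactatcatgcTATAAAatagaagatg

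Mmp12: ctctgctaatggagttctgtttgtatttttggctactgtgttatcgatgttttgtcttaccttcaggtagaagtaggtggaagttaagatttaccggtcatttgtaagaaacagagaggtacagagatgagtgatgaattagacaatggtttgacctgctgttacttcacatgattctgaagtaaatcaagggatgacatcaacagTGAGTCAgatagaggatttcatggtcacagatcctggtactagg

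Each window held 1 AP-1 match, 35 to 29 bases before the start in *Mmp13* and 44 to 38 bases before it in *Mmp12*, and 6.75% of the 32851 windows of this length in the table held one. The TATA letters were found in the *Mmp13* window, 16 to 11 bases before the start, and in 7.59% of all windows. The other *Mmp12* window, before 7344397, held neither, nor did the window of *Timp2*. Which *Mmp12* start these cells use was not tested, so the AP-1 match is not a shared trait of the 2 genes as a whole. The letters AGGAAG of ETS factors, searched on both strands, were present in 29.5% of all windows. They occurred at 2 places in the *Mmp13* window and at none in the *Mmp12* window printed. In the other *Mmp12* window they lay 87 to 82 bases before the start. GC made up 40.4% of the *Mmp13* and 39.6% of the *Mmp12* window, against a median of 52.4%. No match overlapped another. A match is a description of these letters and not of binding. The table held windows for 6 of the 10 members.

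*Mmp12* was lower in Trem2-/- cells than in WT cells under both conditions, and did not pass the test for cholesterol in either genotype. The 4 WT non-foamy libraries had 69.5, 70.3, 80.7 and 63.3 CPM and the 4 WT foamy libraries 60.9, 72.5, 77.9 and 64.7 CPM. The 3 Trem2-/- non-foamy libraries had 21.7, 23.0 and 17.9 CPM and the 4 Trem2-/- foamy libraries 17.6, 16.2, 18.4 and 23.0 CPM. The lowest WT library therefore stood well above the highest Trem2-/- library, while the foamy and non-foamy libraries of a genotype overlapped. Such separation was common: 46.1% of all tested genes did not overlap between the genotypes in non-foamy and 28.8% in foamy cells.

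The test was edgeR's quasi-likelihood test on all 15 libraries, with Benjamini-Hochberg adjustment over the 14237 genes tested. In non-foamy cells *Mmp12* fell by 1.76 ± 0.116 on the log2 scale (SE, 3.40-fold, adjusted p = 6.58e-11), and in foamy cells by 1.88 ± 0.105 (3.68-fold, adjusted p = 1.48e-11). Foamy against non-foamy cells gave a log2 change of -0.04 ± 0.0989 in WT (95% interval -0.243 to 0.167; adjusted p = 0.893, edgeR) and -0.15 ± 0.116 in Trem2-/- cells (-0.393 to 0.0865; adjusted p = 0.882). The difference between these responses was -0.11, with an interval from -0.431 to 0.201 (adjusted p = 0.767, edgeR). Of the exonic bases of *Mmp12*, 157 (2.17%) are shared with *Mmp1b* on the other strand, which had no counts in any library.

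**Figure D1:**
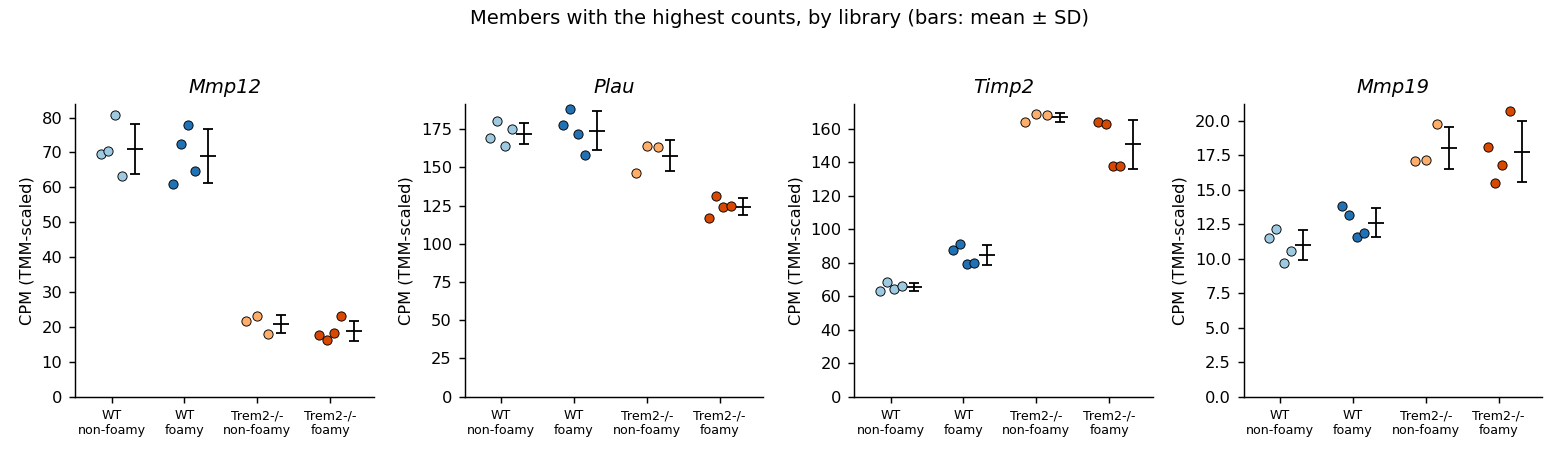
CPM (TMM-scaled, y axis) of the 4 members with the highest counts, 1 panel a gene, by group on the x axis; points are libraries, bars the mean ± SD. *Mmp12* separated the genotypes with WT libraries from 60.9 to 80.7 and Trem2-/- libraries from 16.2 to 23.0 CPM, and *Timp2* and *Mmp19* separated them in the other direction. Of all tested genes, 46.1% did not overlap between the genotypes in non-foamy and 28.8% in foamy cells.

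*Mmp13* was counted in few reads. The WT non-foamy libraries held 2, 10, 4 and 6 reads and the WT foamy libraries 18, 12, 16 and 16. The Trem2-/- non-foamy libraries held 6, 2 and 2 reads and the Trem2-/- foamy libraries 0, 0, 2 and 2. In reads, all 4 WT foamy libraries were above every other library. After scaling for depth, the second WT non-foamy library (0.322 CPM) came above the lowest WT foamy library (0.293 CPM), while no Trem2-/- foamy library exceeded 0.0743 CPM. Such a gap between the genotypes in foamy cells was found for 28.8% of all tested genes.

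Between the genotypes in foamy cells the log2 change of *Mmp13* was -3.70 ± 0.786 (SE, adjusted p = 0.00098, edgeR). The gene passed the filter mainly through WT libraries, so this p-value is given as a description only. Summed over libraries there were 62 reads in WT and 4 in Trem2-/- foamy cells, which is 14.3-fold per counted read, with an exact counting interval from 5.30 to 54.0, or from 3.63 to 123 if reads were counted in pairs. In non-foamy cells the sums were 22 and 10 reads and the log2 change was -0.64 ± 0.772 (adjusted p = 0.534, edgeR). *Mmp13* was also 1.34 ± 0.59 higher on the log2 scale in foamy than in non-foamy WT cells, and this did not pass the test (adjusted p = 0.252, edgeR). The difference between the responses was -3.06 ± 1.17 (adjusted p = 0.16, edgeR). Intervals on counts cover counting error only.

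*Mmp9* (ENSMUSG00000017737, chromosome 2, 164940780 to 164955850, plus strand), the gelatinase abundant in neutrophils and also made by activated macrophages, held 22, 2, 22 and 30 reads in WT non-foamy and 18, 14, 18 and 24 in WT foamy libraries. It held 8, 0 and 4 reads in Trem2-/- non-foamy and 6, 0, 14 and 0 in Trem2-/- foamy libraries. One library of each comparison crossed over: the second WT non-foamy library had 2 reads and the third Trem2-/- foamy library 14.

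The log2 change of *Mmp9* was -2.15 ± 0.914 in non-foamy (adjusted p = 0.0608, edgeR) and -1.68 ± 0.798 in foamy cells (adjusted p = 0.12), so neither passed. Without the second WT non-foamy library the non-foamy change was -2.52 (adjusted p = 0.0223, edgeR), and without the third Trem2-/- foamy library the foamy change was -3.01 (adjusted p = 0.0226). Each library left out here was the one that crossed over. *Mmp9* passed in 5 of 14 other settings in non-foamy and in 3 of 15 in foamy cells. The gene passed the filter mainly through WT libraries, so these p-values are given as a description only. In sums, 76 reads in WT against 12 in Trem2-/- non-foamy cells gave a ratio of 4.77 (exact counting interval 2.58 to 9.64, or 2.0 to 13.8 if reads were counted in pairs). In foamy cells 74 against 20 reads gave 3.41 (2.06 to 5.89, or 1.66 to 7.68 in pairs). The neutrophil markers, whose cells carry much *Mmp9*, summed to 0.259 to 0.797 CPM in WT and 0.361 to 0.751 CPM in Trem2-/- libraries.

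*Mmp2* (ENSMUSG00000031740, chromosome 8, 92827291 to 92853420, plus strand), the other gelatinase, differed little between the genotypes. The reads were 34, 27, 14 and 42 in WT non-foamy, 54, 48, 39 and 50 in WT foamy, 31, 28 and 24 in Trem2-/- non-foamy and 46, 47, 38 and 24 in Trem2-/- foamy libraries. After scaling, the WT foamy libraries (1.17 to 1.43 CPM) all lay above the WT non-foamy ones (0.616 to 0.937 CPM). These 2 groups did not overlap for 9.71% of all tested genes. The log2 change was 0.61 ± 0.258 in WT (95% interval 0.073 to 1.14; adjusted p = 0.231, edgeR) and 0.45 ± 0.285 in Trem2-/- cells (adjusted p = 0.857), neither past the threshold. Between genotypes it was 0.10 ± 0.289 in non-foamy and -0.06 ± 0.251 in foamy cells (adjusted p = 0.816 and 0.883, edgeR), and the sign of each turned in 2 and 1 of the other settings tried.

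**Figure D2:**
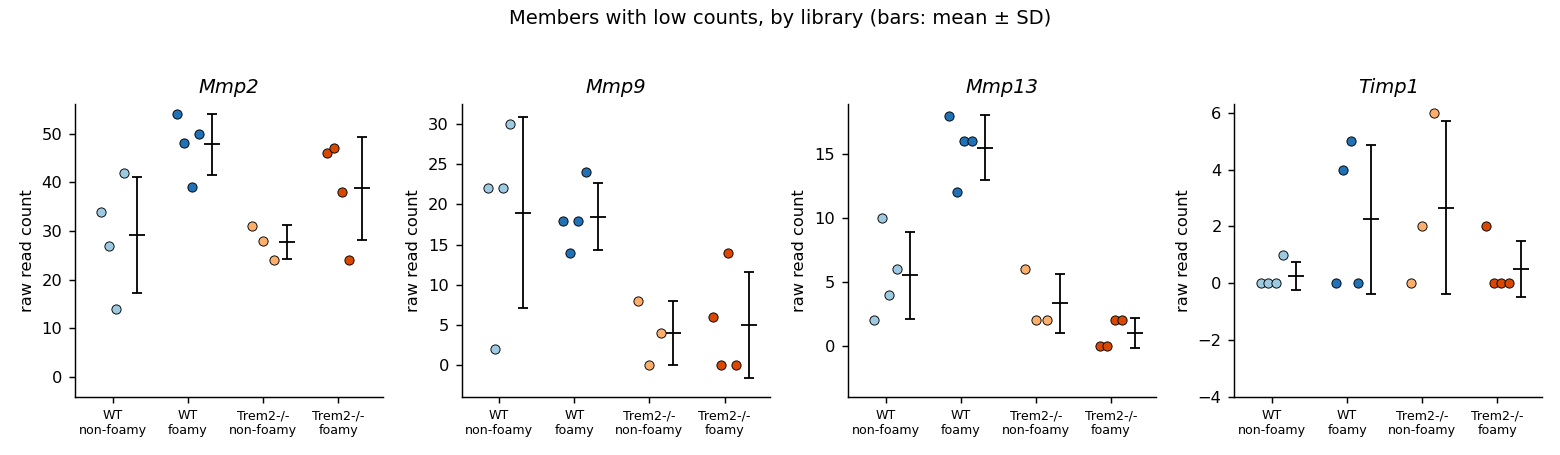
Raw reads (y axis) of 4 members with low counts, 1 panel a gene, by group on the x axis; points are libraries, bars the mean ± SD, and the axis starts below 0 so that points at 0 are whole. The 4 WT foamy libraries had 12 to 18 *Mmp13* reads and the 4 Trem2-/- foamy libraries 0 to 2. Between these groups 28.8% of all tested genes did not overlap in CPM.

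*Mmp19* (ENSMUSG00000025355, chromosome 10, 128790910 to 128800824, plus strand), a secreted protease with broad basement membrane substrates, was higher in Trem2-/- cells, opposite to *Mmp12*. It measured 11.5, 12.2, 9.68 and 10.6 CPM in WT non-foamy and 13.8, 13.2, 11.6 and 11.9 CPM in WT foamy libraries. The values were 17.1, 17.2 and 19.8 CPM in Trem2-/- non-foamy and 18.1, 15.5, 16.8 and 20.7 CPM in Trem2-/- foamy libraries. No WT library reached the lowest Trem2-/- library, where 46.1% (non-foamy) and 28.8% (foamy) of all tested genes did not overlap between the genotypes.

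*Mmp19* rose by 0.71 ± 0.11 on the log2 scale in non-foamy (1.64-fold, adjusted p = 1.46e-05, edgeR) and by 0.49 ± 0.101 in foamy cells (1.41-fold, adjusted p = 0.000742). The change with cholesterol was 0.20 ± 0.103 in WT (adjusted p = 0.36, edgeR) and -0.02 ± 0.109 in Trem2-/- cells (adjusted p = 0.988), and the difference between them, -0.22 ± 0.15, did not pass (adjusted p = 0.489). Of its exonic bases 28.3% are shared with *Tmem198b* and *Gm47093* on the other strand, and the strand setting of the counting is not given in the sources used here. *Gm47093* had no counts. *Tmem198b* had 2.44 ± 0.482 and 2.10 ± 0.496 CPM in WT non-foamy and foamy cells (SD, n = 4 each) and 3.09 ± 0.668 (n = 3) and 2.30 ± 0.16 CPM (n = 4) in Trem2-/- cells.

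*Mmp14* (ENSMUSG00000000957, chromosome 14, 54431612 to 54445364, plus strand), the membrane-bound MMP that activates pro-MMP-2 together with TIMP-2, was not detectable in 13 of 15 libraries. There were 4 reads in the second WT non-foamy and 6 in the second Trem2-/- foamy library. A count of 0 allows 3 reads, or 0.072 to 0.127 CPM across these depths.

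*Plau* (ENSMUSG00000021822, chromosome 14, 20836660 to 20843385, plus strand), the urokinase that makes plasmin, had the highest level per length of the 10 genes. It measured 169, 180, 164 and 175 CPM in WT non-foamy and 178, 188, 172 and 158 CPM in WT foamy libraries. In Trem2-/- cells it measured 146, 164 and 163 CPM without and 117, 131, 124 and 125 CPM with cholesterol. The Trem2-/- foamy libraries were below all other libraries. Of all tested genes, 9.26% did not overlap between Trem2-/- foamy and non-foamy cells, and 28.8% between the genotypes in foamy cells.

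*Plau* fell by 0.49 ± 0.0635 on the log2 scale between genotypes in foamy cells (1.40-fold, adjusted p = 4.26e-06, edgeR). In non-foamy cells the change was -0.13 ± 0.0685 (95% interval -0.268 to 0.0165; adjusted p = 0.146, edgeR). With cholesterol it changed by 0.02 ± 0.0631 in WT (-0.114 to 0.148; adjusted p = 0.929, edgeR) and fell by 0.34 ± 0.0683 in Trem2-/- cells (adjusted p = 0.039). The difference between the responses was -0.36 ± 0.0931 (adjusted p = 0.0328, edgeR). The last pair of calls was the least firm: the fall in Trem2-/- cells was lost in 7 of 14 other settings (adjusted p up to 0.364, edgeR, without the second Trem2-/- non-foamy library) and the difference in 8 of 21 (up to 0.103). The fall in Trem2-/- cells was lost without any 1 of the Trem2-/- foamy libraries 1, 3 and 4 (adjusted p = 0.224, 0.145 and 0.0834, edgeR) or the third Trem2-/- non-foamy library (0.305). The estimate stayed between -0.40 and -0.31. Its direction rests on the Trem2-/- foamy and non-foamy labels, against which the sterol genes moved.

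*Timp2* (ENSMUSG00000017466, chromosome 11, 118301069 to 118355740, minus strand), the inhibitor that also takes part in pro-MMP-2 activation, was higher in Trem2-/- cells and rose with cholesterol in WT cells. The WT non-foamy libraries had 63.4, 68.8, 64.3 and 66.3 CPM and the WT foamy libraries 87.9, 91.4, 79.2 and 79.6 CPM. The Trem2-/- non-foamy libraries had 164, 169 and 168 CPM and the Trem2-/- foamy libraries 164, 163, 138 and 138 CPM. The WT foamy libraries all lay above the WT non-foamy ones, and every Trem2-/- library lay above every WT library. Of all tested genes, 9.71% did not overlap between the WT groups. Between the genotypes 46.1% did not overlap in non-foamy and 28.8% in foamy cells.

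*Timp2* rose by 1.34 ± 0.0731 on the log2 scale between genotypes in non-foamy (2.54-fold, adjusted p = 2.98e-12, edgeR) and by 0.83 ± 0.0682 in foamy cells (1.78-fold, adjusted p = 5.71e-09). In WT cells it rose with cholesterol by 0.365 ± 0.0685 (95% interval 0.223 to 0.507; adjusted p = 0.00411, edgeR). In Trem2-/- cells the change was -0.15 ± 0.0727 (-0.298 to 0.0026; adjusted p = 0.779, edgeR). The difference between the responses was -0.51 ± 0.0998 (adjusted p = 0.0054, edgeR), and it rests on the same labels. These calls held in each other setting tried. The order of the group means, from WT non-foamy over WT foamy and Trem2-/- foamy to Trem2-/- non-foamy (65.7, 84.6, 151 and 167 CPM), was the reverse of the order of *Cyp51* (134, 78.1, 63.3 and 43.8 CPM). For *Timp2* the step between the Trem2-/- groups did not pass (adjusted p = 0.779, edgeR). A link between *Timp2* and *Cyp51* was not tested.

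*Timp1* (ENSMUSG00000001131, chromosome X, 20870166 to 20874735, plus strand), the inducible inhibitor, held 0, 0, 0 and 1 reads in WT non-foamy, 0, 4, 5 and 0 in WT foamy, 0, 2 and 6 in Trem2-/- non-foamy and 2, 0, 0 and 0 in Trem2-/- foamy libraries. It was at 0 in 9 of 15 libraries, and no difference was detectable at this depth. *Timp3* (ENSMUSG00000020044, chromosome 10, 86300372 to 86349506, plus strand), the inhibitor that binds to the matrix, was at 0 in all 15 libraries, which allows up to 0.072 to 0.127 CPM in each. *Timp2* therefore made up 99.2 to 100% of the TIMP transcripts per length in every library.

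**Figure D3:**
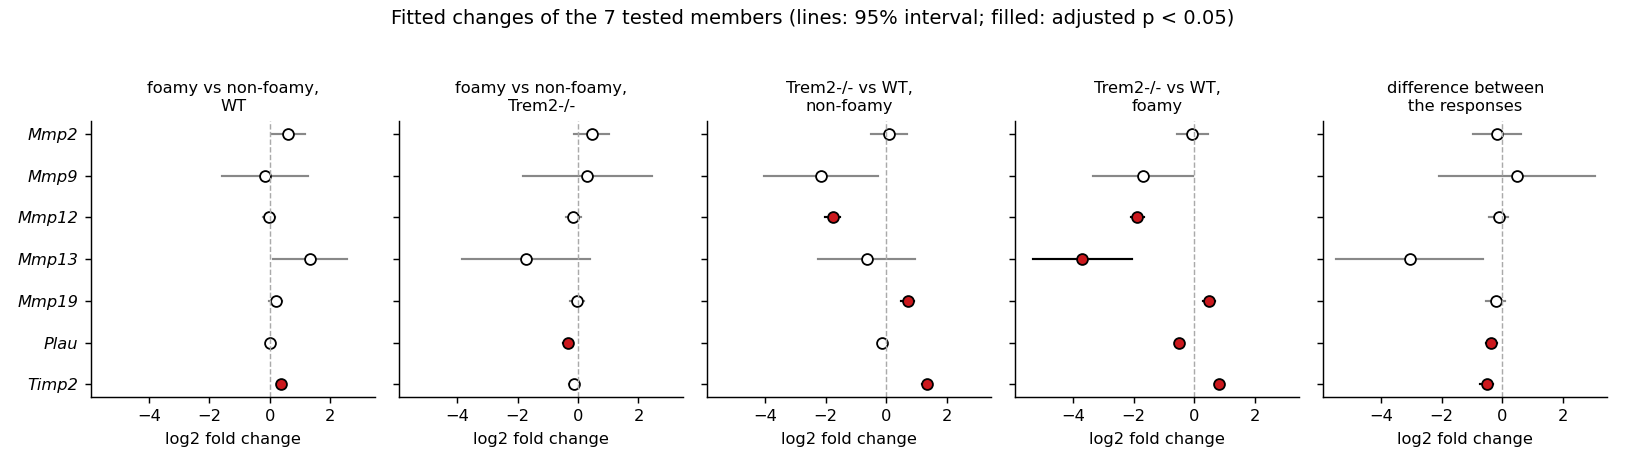
Fitted log2 fold change (x axis) of the 7 tested members (y axis) in the 5 comparisons, 1 panel each, with 95% intervals as lines; filled points have an adjusted p below 0.05. *Timp2* and *Mmp19* lay to the right and *Mmp12* to the left of 0 in both genotype panels, and *Timp2* (-0.51) and *Plau* (-0.36) below 0 in the panel of the difference.

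Counted over the tested members, 1 of 7 passed in WT foamy against non-foamy cells (*Timp2*, higher), where 2.80% of all tested genes passed, 1.66% higher and 1.14% lower. In Trem2-/- cells 1 of 7 passed (*Plau*, lower), against 0.140% of all genes, 0.105% higher and 0.0351% lower. Between genotypes in non-foamy cells 3 of 7 passed (*Timp2* and *Mmp19* higher, *Mmp12* lower), against 43.6% of all genes, 21.0% higher and 22.6% lower, a share near the background. In foamy cells 5 of 7 passed (*Timp2* and *Mmp19* higher, *Mmp12*, *Mmp13* and *Plau* lower), against 30.2%, 14.3% higher and 15.9% lower. Since *Mmp13* passed the filter mainly through WT libraries, this count cannot be weighed against that share. The difference between the responses passed for 2 of 7, both lower, against 3.64%, 1.99% higher and 1.64% lower. The median log2 change of the tested members was 0.195, -0.148, -0.126, -0.486 and -0.219 in these 5 comparisons in turn, and that of all tested genes lay between -0.0025 and 0.017. Between the genotypes 3 of 7 members did not overlap in non-foamy cells, against 46.1% of all tested genes, and 5 of 7 in foamy cells, against 28.8%. With cholesterol 2 of 7 did not overlap in each genotype, against 9.71% in WT and 9.26% in Trem2-/- cells. The comparisons share libraries and are not independent of one another.

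The summed RPKM of the 6 MMP members was set against that of the 3 TIMP members in each library, as a description with no test. The MMP sum was 13.4 ± 0.886 and 13.8 ± 0.877 RPKM in WT non-foamy and foamy cells (SD, n = 4 each) and 8.33 ± 0.0828 (n = 3) and 8.05 ± 0.931 RPKM (n = 4) in Trem2-/- cells. The TIMP sum was 16.9 ± 0.619, 21.8 ± 1.55, 42.9 ± 0.737 and 38.6 ± 3.79 RPKM in the same order. The MMP to TIMP ratio was 0.720 to 0.874 in WT non-foamy, 0.575 to 0.719 in WT foamy, 0.193 to 0.196 in Trem2-/- non-foamy and 0.170 to 0.263 in Trem2-/- foamy libraries. The mean ratio was thus 4.10 times higher in WT than in Trem2-/- non-foamy cells and 3.01 times higher in foamy cells. *Mmp12* made up 64.8 to 77.4% of the MMP sum in WT and 29.5 to 37.9% in Trem2-/- libraries. The sums, the ratio and this share depend on the length of 7237 bases used for *Mmp12*, and a shorter one would raise them. These are transcripts, and say nothing of zymogen activation or protease activity.

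**Figure D4:**
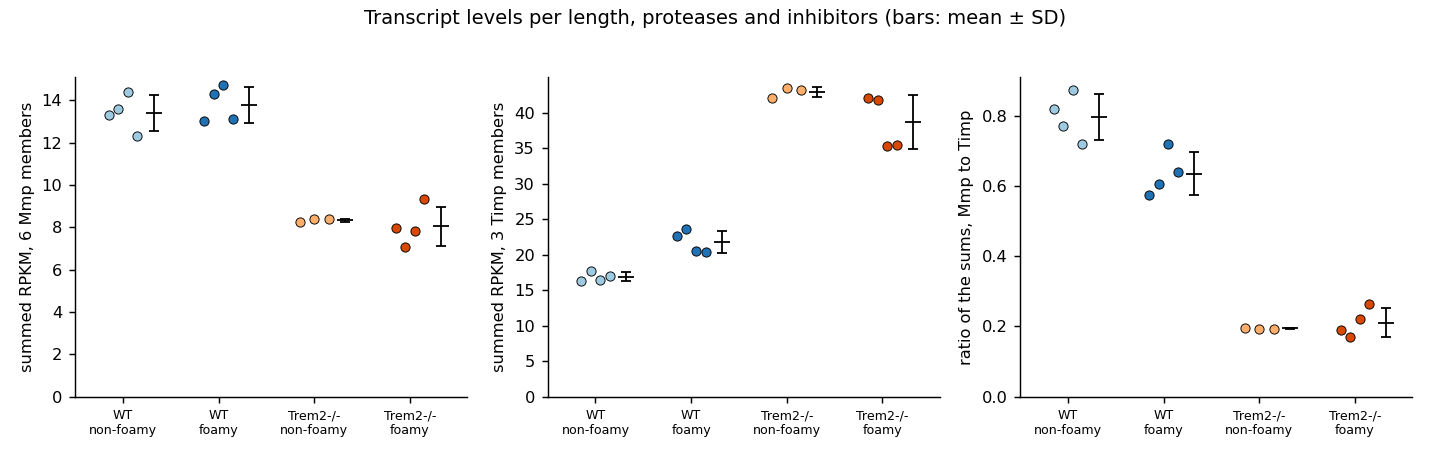
Summed RPKM of the 6 MMP members (left), of the 3 TIMP members (middle) and their ratio (right) on the y axes, by group on the x axis; points are libraries, bars the mean ± SD. The ratio was 0.575 to 0.874 in the 8 WT libraries and 0.170 to 0.263 in the 7 Trem2-/- libraries.

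Among the other 18 MMP and TIMP genes, 12 had no read in any library. Only *Mmp23* passed the filter, with 8 to 31 reads a library, and it was called in 0 of the 5 comparisons by edgeR and by DESeq2 (0 at an unadjusted p under 0.05). *Mmp8*, the neutrophil collagenase, held 0 to 10 reads.

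The genes that carry plasminogen activation moved in part with genotype, and none passed for cholesterol in either genotype by edgeR or DESeq2 (3 of 7 in WT and 1 of 7 in Trem2-/- cells had an unadjusted p under 0.05 in edgeR). In non-foamy cells 3 of the 7 tested were higher and 3 lower in Trem2-/- cells, where 21.0% and 22.6% of all tested genes were called. The urokinase receptor gene *Plaur* rose by 0.40 ± 0.0835 (adjusted p = 0.000468, edgeR), the plasminogen receptor gene *Plgrkt* by 0.68 ± 0.0925 (adjusted p = 2.57e-06) and *Lrp1*, an endocytic receptor with many ligands, by 0.48 ± 0.143 (adjusted p = 0.00898). Among those lower, *Eno1*, a glycolytic enzyme that also binds plasminogen at the cell surface, fell by 0.35 ± 0.0726 (adjusted p = 0.000459, edgeR) and *Anxa2*, a surface docking protein for plasminogen, by 0.26 ± 0.0685 (adjusted p = 0.00321). In foamy cells 2 of 7 passed, near the 30.2% of all tested genes. These were *Plgrkt* (0.46 ± 0.0859, adjusted p = 0.000306, edgeR) and *Plaur* (0.30 ± 0.0773, adjusted p = 0.00507), both higher, and 4 passed with total counts alone. In foamy cells *Plaur* was thus higher where its ligand gene *Plau* was lower, at 50.8 ± 3.82 CPM in Trem2-/- foamy against 41.4 ± 2.31 CPM in WT foamy cells (SD, n = 4 each). In non-foamy cells *Plaur* was higher too, while *Plau* did not pass (-0.13 ± 0.0685, adjusted p = 0.146, edgeR).

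Of the 15 ADAM and ADAMTS genes, related metalloproteases that include cell surface sheddases, 8 were tested. In non-foamy cells 2 rose and 2 fell and in foamy cells 1 rose and 1 fell, shares near the 43.6% and 30.2% of all tested genes that were called. *Adam17*, the TNF-releasing sheddase, rose by 0.38 ± 0.0592 (adjusted p = 1.6e-05, edgeR) and *Adamts10* by 0.30 ± 0.123 (adjusted p = 0.0487), while *Adam8* fell by 0.70 ± 0.099 (adjusted p = 4.24e-06). *Adamts4*, named after its values were seen since it was low, fell by 1.21 ± 0.414 (adjusted p = 0.0217, edgeR). Without the third Trem2-/- or the first WT non-foamy library, 2 of these 4 calls were left. In foamy cells *Adam17* was 0.28 ± 0.0551 higher (adjusted p = 0.000506, edgeR) and *Adam8* 0.50 ± 0.09 lower (adjusted p = 0.000186). None passed for cholesterol in either genotype by edgeR or DESeq2, and 0 had an unadjusted p under 0.05.

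Of the 12 genes that activate, dock or restrain MMPs, 6 were tested and 2 were called in each genotype comparison, against the same 43.6% and 30.2%. *Furin*, the convertase that cuts the membrane-type MMP zymogens, rose by 0.62 ± 0.128 in non-foamy Trem2-/- cells (adjusted p = 0.000431, edgeR) and was 0.24 ± 0.119 in foamy cells (adjusted p = 0.138). The syndecan gene *Sdc1* fell by 1.12 ± 0.126 in non-foamy and 0.65 ± 0.114 in foamy cells (adjusted p = 1.89e-07 and 0.000137, edgeR). *Bsg*, the surface protein known as MMP inducer, rose by 0.29 ± 0.0613 in foamy cells (adjusted p = 0.000831, edgeR). *Cd44*, a docking receptor of MMP-9, did not pass in either (-0.08 ± 0.0557 and -0.05 ± 0.0515, adjusted p = 0.294 and 0.548, edgeR).

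The matrix substrates were mostly silent. Of 20 genes 8 had no read in any library, among them *Col1a1*, *Col1a2* and *Fn1*, and 6 were tested, of which 2 were called in non-foamy cells, against 43.6% of all genes. *Spp1* (osteopontin), a substrate of several MMPs, was abundant at 6120 to 6760 CPM in the group means and did not pass between genotypes (log2 change -0.06 ± 0.0803 and 0.07 ± 0.0743, adjusted p = 0.578 and 0.545, edgeR). *Col4a1* and *Lamb2*, both under 1 CPM and named after their values were seen, passed in non-foamy cells (adjusted p = 0.0446 and 0.0227, edgeR), and both calls were lost when any 1 Trem2-/- non-foamy library was left out. In this list and in that of MMP activation, no gene passed for cholesterol in either genotype by edgeR or DESeq2, and 1 of the 12 tested (*Sdc1*, in WT cells) had an unadjusted p under 0.05 in edgeR.

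The genes whose log2 CPM followed a member most closely over the 15 libraries were *Spcs3* and *Arl6ip1* for *Mmp12* (Pearson r = 0.991 and 0.989), the lysosomal hydrolase genes *Ctsd* and *Hexa* for *Timp2* (0.996 and 0.993), *Sgpp1* and *Socs6* for *Mmp19* (0.961 and 0.960), and *Swap70* and *Pde8a* for *Plau* (0.940 and 0.910). The libraries fall into 2 genotypes, so these values mostly describe a shared step between them. *Ctsd* measured 1410 ± 49.1, 1650 ± 106, 2390 ± 58 and 2310 ± 132 CPM in WT cells without and with cholesterol and in Trem2-/- cells without and with it (SD, n = 4, 4, 3 and 4). Its group means had the same order as those of *Timp2*. *Ctsd* was picked for its likeness to *Timp2*, so this order adds nothing to the correlation.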

How the data were processed

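The study's authors trimmed reads with Trimmomatic, aligned them with HISAT2 to the mouse genome (mm10 in the labels) and counted them per gene with featureCounts. The deposited values are raw read counts, 1 table per library, for 54390 genes. Libraries were total RNA, sequenced on a NovaSeq. The strand setting and the treatment of multi-mapped reads are not given in the sources used here. Counts of 1 to 20 were mostly even (80.8 to 82.1% per library, against 50.7% of counts from 1001 to 2000).

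Counts were fitted in R 4.3.3 with edgeR 4.0.16 (glmQLFit and glmQLFTest, TMM factors 0.918 to 1.11), 1 mean per group, all 15 libraries. filterByExpr (minimum count 10) left 14237 genes and 99.97% of counts. Calls had an adjusted p under 0.05, and an SE is the fold change over the square root of the test's F. The authors' test was DESeq2, run here (1.42.0) as an alternative; all 22 alternatives are described at the end. CPM used TMM-scaled totals. Exonic lengths and positions came from GENCODE M21 (GRCm38) and windows from RefSeq (GRCm38.p6). On simulated counts for the foamy genotype comparison (13934 genes) the fit recovered 80% of changes of 1 and 65% of changes of 0.5 on the log2 scale, and 4.61% of its calls were false. Replicate libraries differed by more than counting noise (chi-square per gene 5.75 to 43.3).

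Members and lists were chosen with earlier results of these data known. Named genes were all members, *Trem2*, checks and overlapping genes, at most 3 called genes with a mean of 1 CPM or more per list and direction, and the 2 genes most like each member. One gene of the plasminogen activation list is counted with its list but not reported here.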

Additional observations from a re-analysis of the deposited data

Results flagged for a closer look

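Among 26 groups of 4 libraries with any read of a member, 4 had 1 library apart from the rest by Dixon's criterion. In each of the 4 the other libraries were at 0, so that any read at all meets the criterion. Its nominal rate of 1 in 20 therefore does not apply to them. All 4 concern genes near 0. *Mmp14* was at 0.129 CPM in the second WT non-foamy library and at 0.191 CPM in the second Trem2-/- foamy library, with the other libraries of each group at 0. *Timp1* was at 0.0223 CPM in 1 WT non-foamy and at 0.0556 CPM in 1 Trem2-/- foamy library, with the others at 0. These are 1 to 6 reads each.

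The response to cholesterol differed between the genotypes, by the test of the difference itself (edgeR), for *Timp2* (log2 difference -0.51, Trem2-/- minus WT, adjusted p = 0.0054) and *Plau* (-0.36, adjusted p = 0.0328). Both stand beside the sterol genes, whose response also differed in sign between the genotypes. Their part in these differences was not tested.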

How the results depend on the processing

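The calls of *Timp2* in both genotype comparisons, in WT cells with cholesterol and in the difference held in each alternative that gave a value. So did those of *Mmp12* and *Mmp19* between genotypes and of *Plau* between genotypes in foamy cells. The call of *Mmp13* between genotypes in foamy cells also held where a value was given. That gene passed the filter mainly through WT libraries, so this is a description only. Over all single values, 513 had the same outcome as the main fit, 15 lost a call and 9 gained one, and none that was called changed sign. The 513 include values that were called neither in the main fit nor in the alternative. The number of members called for cholesterol in Trem2-/- cells was 0 rather than 1 with total counts alone and with the replicate block, and 0 to 1 when 1 library was left out. The number called for the difference was 1 rather than 2 with total counts alone and with the replicate block, and 1 to 2 with 1 library left out (in both cases *Plau* was lost; the cause was not tested). With the replicate block, the adjusted p of *Plau* was 0.066 in Trem2-/- cells and 0.0506 for the difference, and that of *Mmp9* in foamy cells 0.0438 (edgeR). Deviations of same-numbered libraries correlated at -0.077 to 0.143. With so few libraries a group, these values cannot tell whether same-numbered libraries share more than a number. *Plau* passed between genotypes in non-foamy cells only with total counts alone (-0.27, adjusted p = 0.0145, edgeR), under which the median log2 change of all genes was -0.125 and -0.129 in the genotype comparisons, against 0.017 and 0 with TMM. *Mmp9* passed in 5 of 14 alternatives in non-foamy cells (lowest adjusted p = 0.0104, edgeR) and in 3 of 15 in foamy cells (0.0226). Without a filter on low counts, *Mmp27* passed in both genotype comparisons (adjusted p = 0.0299 and 0.0249, edgeR), and *Lrp1* (0.35 on the log2 scale) and *Sdc1* (-0.33) passed for cholesterol in WT cells (adjusted p = 9.15e-05 and 0.0235, edgeR). Over all genes, calls for cholesterol were 399 in WT and 20 in Trem2-/- cells, and 881 and 56 with DESeq2, 144 and 25 with only the groups compared, 607 and 61 without a filter. The difference had 518 calls, and 985 with DESeq2 and 294 with the replicate block. Leaving out 1 library gave 146 to 526 calls in WT cells, 10 to 18 in Trem2-/- cells and 201 to 661 for the difference. Halving all counts, added after the even counts were seen, gave *Mmp9* a call in non-foamy cells (adjusted p = 0.0411, edgeR) and left *Mmp13* out at the filter, so that 4 rather than 5 members were called between genotypes in foamy cells. The other member calls held. Under 10 reads, depth limits *Mmp13*, *Mmp14* and *Timp1*.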

Other observations

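*Mmp27*, which lies in the same run of Mmp genes on chromosome 9 as *Mmp12* and *Mmp13*, was named after its values were seen. It did not pass the filter on low counts. All 8 WT libraries held 0 reads, and the 7 Trem2-/- libraries held 8, 2 and 2 reads without and 6, 1, 6 and 4 reads with cholesterol. Its sum was 29 reads in Trem2-/- cells. Its nearest neighbour *Mmp8* had 46 reads over all libraries, 20 in WT and 26 in Trem2-/- cells, and *Mmp10* had 6, all in WT cells. *Mmp1a*, *Mmp1b*, *Mmp3*, *Mmp7* and *Mmp20* had none in any library.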
